A study of Mus musculus with 10 samples.

Results

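Cartilage genes, 8 in all, were read out of RNA sequencing of mouse skeletal stromal cells, namely 7 that encode proteins of the cartilage matrix (*Col2a1*, *Col9a1*, *Col9a3*, *Acan*, *Hapln1*, *Matn3* and *Cnmd*) and *Sox9*, which encodes the transcription factor that drives them. They are 8 of the 15078 genes in the table of normalized read counts. They were chosen by symbol, *Sox9* together with the matrix genes, because the matrix genes had been seen to be low in stromal cells taken from transplanted bones. The comparisons with those cells are therefore given as a description, without a test. All 8 passed the filter on low values, a mean of at least 10 over the 10 libraries.

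The question was how periosteum-derived cells in regenerated marrow compare with the resident stromal cells of marrow and periosteum. All cells were sorted as CD51+CD200+ from the fraction lacking CD45, Ter119 and CD31, the surface proteins of blood and endothelial cells, and each library held RNA of 1000 to 3000 cells. The 3 BM-MSC libraries (bone marrow mesenchymal stem cells) and the 3 P-SSC libraries (periosteal skeletal stem cells) came from wild-type mice labelled as host at steady state, with treatment given as none. The 4 graft BM-MSC libraries came from the marrow of femurs of POSTN-CRE transgenic donors 5 months after the femurs had been implanted under the skin of recipient mice. In the donors a tamoxifen-inducible Cre is driven by the promoter of *Postn*, the periostin gene, and switches on the reporter tdTomato. Tamoxifen was given to the recipients for 10 days from day 2 after transplantation, and Tomato+ cells were sorted. The reporter marks any cell that used the *Postn* promoter in those days, which includes osteoblasts and fibroblasts as well as periosteal cells. Mice were at least 6 weeks old by the general statement of the methods, so the grafted cells were older at sorting. Tamoxifen, the transgenes, the sort for Tomato+ cells, age and transplantation separate the graft from both other groups and cannot be told apart. The RNA of 2 mice was combined in some libraries (BM-MSC 2+4 and P-SSC 2+5 by their labels), and no mouse was shared between replicates.

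Hyaline cartilage is built on fibrils of type II collagen, with type IX collagen on their surface and type XI collagen in their core. Between the fibrils lie aggregates of aggrecan, each held on hyaluronan by link protein, and matrilins connect the collagen and proteoglycan networks. SOX9, with SOX5 and SOX6, switches on most of these genes in chondrocytes, the cells of cartilage. Bone marrow stromal cells can be differentiated into chondrocytes in culture, and long bones carry cartilage at the growth plate and the joint surface.

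Depth did not separate the groups, with 15415421 to 25223295 reads in genes per library. Gene values below are normalized reads, that is reads divided by the size factor of the library. A value of 3 recovered reads, taken here as the detection floor, was 0.119 to 0.195 parts of 1e6 reads of a library (ppm) and covers counting error only. Graft libraries held more zeros than the others. Among genes with at least 100 normalized reads in each other library of the group, 0.898 to 8.78% were at 0 in a graft library (8.78% in graft BM-MSC 2) and at most 0.363% in a steady-state library. The libraries also fell into 2 sets by the GC content of genes. Each gene was first centred on its mean over the 10 libraries. The median of the 51 genes over 65% GC minus that of genes of 50 to 60% GC was then taken. It was 1.52 to 2.80 log2 units in the 4 graft libraries and P-SSC 4. In the 3 BM-MSC libraries, P-SSC 1 and P-SSC 2+5 it was -1.81 to -1.51. These are shifts from each gene's own mean, not levels within a library. No BM-MSC library is in the first set, so this difference and the group cannot be told apart for graft against BM-MSC. The part of GC content and of the zeros in the results was not tested. The 8 genes themselves ranged from 39.8% GC for *Hapln1* to 62.2% for *Col2a1*.

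The upstream sequence of these genes is shown because they are known targets of one factor and share one pattern across libraries. RefSeq gives promoter windows on GRCm38.p6 for 5 of the 8 genes. These windows end at the RefSeq start, which for *Acan* lies before the GENCODE start given below and for *Hapln1* after it. There are 6 windows for the 5 genes, since *Col9a1* has a second one. The window of *Hapln1* overlaps annotated exons by 250 bases and the second window of *Col9a1* by 16. The 250 bases before the RefSeq start of *Acan* (chr7:79052976-79053225, plus strand), *Matn3* (chr12:8947679-8947928, plus strand), *Col9a1* (chr1:24177360-24177609, plus strand) and *Cnmd* (chr14:79662184-79662433, minus strand) read 5′ to 3′ as follows, with matches to the GC box GGGCGG, on either strand, in capitals.
Acan: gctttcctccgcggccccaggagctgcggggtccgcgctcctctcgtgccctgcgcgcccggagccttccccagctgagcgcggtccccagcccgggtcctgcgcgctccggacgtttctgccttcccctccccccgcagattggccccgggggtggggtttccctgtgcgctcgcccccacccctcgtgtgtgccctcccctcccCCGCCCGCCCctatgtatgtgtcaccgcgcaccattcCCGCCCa
Matn3: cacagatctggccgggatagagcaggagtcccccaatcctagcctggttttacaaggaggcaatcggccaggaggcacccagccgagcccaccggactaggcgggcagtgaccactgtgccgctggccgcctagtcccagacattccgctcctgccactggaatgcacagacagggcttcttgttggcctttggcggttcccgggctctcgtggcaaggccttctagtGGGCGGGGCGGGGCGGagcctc
Col9a1: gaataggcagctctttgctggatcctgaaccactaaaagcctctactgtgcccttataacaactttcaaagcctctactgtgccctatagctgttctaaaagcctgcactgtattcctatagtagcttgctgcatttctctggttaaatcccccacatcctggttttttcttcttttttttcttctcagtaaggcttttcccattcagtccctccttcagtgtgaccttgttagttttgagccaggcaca
Cnmd: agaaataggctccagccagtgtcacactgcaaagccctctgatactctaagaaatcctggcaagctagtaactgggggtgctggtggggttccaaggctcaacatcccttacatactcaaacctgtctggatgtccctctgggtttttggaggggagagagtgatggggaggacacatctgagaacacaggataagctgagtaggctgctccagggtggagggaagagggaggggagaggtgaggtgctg

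The GC box was found in the windows of *Acan* and *Matn3*, 3 overlapping or neighbouring matches in each, and in none of the other 4 windows of these genes. Over all 32851 RefSeq windows of this length, 32.7% held it. The letters ACAAAG and ACAATG, cores bound by SOX proteins, and the TATA box TATAAA were in 0 of the 6 windows on either strand, against 16.5%, 10.7% and 12.4% of all windows. The windows also differ in base composition, from 43.6% GC for *Col9a1* to 74.4% for *Acan*. These are matches of letters in short windows, and the distant enhancers of cartilage genes lie outside them.

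All 7 matrix genes were detected in every steady-state BM-MSC library. *Col2a1* (ENSMUSG00000022483, chromosome 15, 97975602 to 98004695, minus strand), which encodes the chain of type II collagen, had 54646 normalized reads in BM-MSC 1, 66401 in BM-MSC 2+4 and 30631 in BM-MSC 3. That was 0.302%, 0.324% and 0.166% of all reads in those libraries, and it ranked 32nd, 28th and 60th among all genes. In P-SSC the values were 130, 1354 and 724. In graft BM-MSC they were 791, 0, 1343 and 3566. Both groups lay wholly below BM-MSC and overlapped each other. The mean was 50559 ± 18232 (SD, n = 3) in BM-MSC, 736 ± 612 (n = 3) in P-SSC and 1425 ± 1530 (n = 4) in graft BM-MSC, that is 68.7-fold and 35.5-fold below BM-MSC by the ratio of means.

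*Col2a1* was thus lower in the graft but not lost, since 3 of 4 graft libraries held it and graft BM-MSC 4 exceeded every P-SSC library. Its order among genes in the graft ran from 631st in graft BM-MSC 4 to 1984th in graft BM-MSC 3 and 3230th in graft BM-MSC 1. Against P-SSC the log2 difference of the graft was -1.02 ± 2.30 (SE), and its direction turned when graft BM-MSC 2 was left out (1.63), with edgeR (1.02), with DESeq2 (0.92), with a replicate block (2.67) and with GC correction and the block (2.53). On the scale of log2(value + 1), as used throughout, the difference from BM-MSC was -7.60 ± 2.30.

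**Figure D1:**
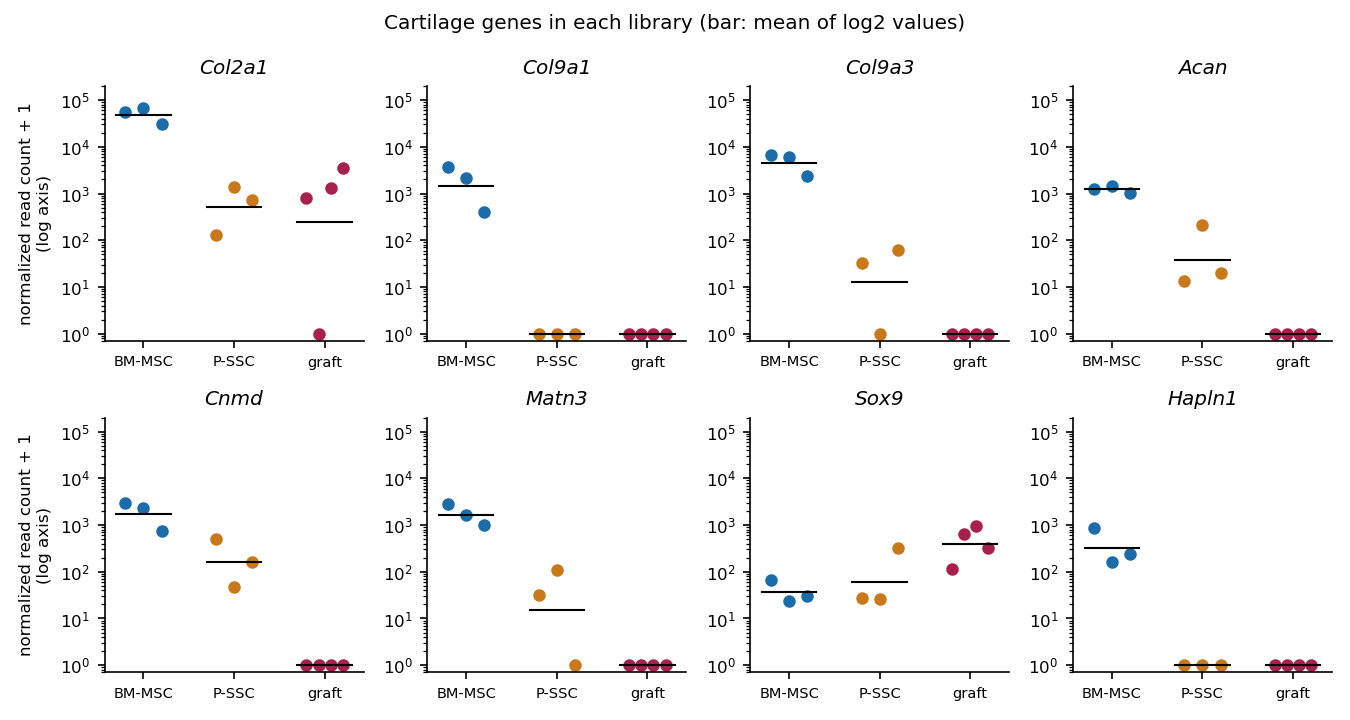
Normalized read count plus 1 (log axis) of each of the 8 genes, one point per library, in BM-MSC (n = 3), P-SSC (n = 3) and graft BM-MSC (n = 4); the bar is the mean of the log2 values. In all, 6 genes sit at 0 normalized reads, drawn at 1, in all 4 graft libraries, *Col2a1* is at 0 in 1 of them, and *Sox9* has its highest values in the graft.

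Type IX collagen is a trimer of 3 chains that coats the type II fibril, and 2 of its chains are among the 8 genes. *Col9a1* (ENSMUSG00000026147, chromosome 1, 24177610 to 24252684, plus strand) had 3610, 2118 and 400 normalized reads in the BM-MSC libraries and 0 in every P-SSC and graft library. *Col9a3* (ENSMUSG00000027570, chromosome 2, 180597790 to 180622189, plus strand) had 6535, 6177 and 2389 normalized reads in BM-MSC, 31.2, 0 and 62.0 in P-SSC, and 0 in every graft library. Against a floor of 3 reads per library, the means in graft BM-MSC were at least 676-fold lower for *Col9a1* and at least 1666-fold lower for *Col9a3* than in BM-MSC. *Col9a3* shares 234 exonic bases with *Tcfl5* on the other strand, and whether the counting used strand is not settled by the sources. The third chain, *Col9a2*, was tested with the other cartilage genes and followed the same order.

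Aggrecan is the large proteoglycan that holds water in cartilage, and link protein fastens it to hyaluronan. *Acan* (ENSMUSG00000030607, chromosome 7, 79053483 to 79115099, plus strand) had 1252, 1475 and 1040 normalized reads in BM-MSC and 12.5, 206 and 19.4 in P-SSC. All 4 graft libraries were at 0, at least 416-fold below BM-MSC and at least 26.3-fold below P-SSC. *Hapln1* (ENSMUSG00000021613, chromosome 13, 89539796 to 89611652, plus strand), the link protein gene, had 867, 163 and 237 normalized reads in BM-MSC and 0 in all 7 other libraries. *Acan* varied least among BM-MSC libraries, by 1.42-fold from lowest to highest, whereas *Hapln1* varied by 5.30-fold and *Col9a1* by 9.02-fold.

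*Matn3* (ENSMUSG00000020583, chromosome 12, 8947929 to 8972028, plus strand) encodes matrilin-3, an adaptor between matrix networks, and had 2840, 1648 and 975 normalized reads in BM-MSC. The P-SSC libraries had 31.2, 107 and 0 normalized reads and the graft libraries 0. *Cnmd* (ENSMUSG00000022025, chromosome 14, 79637690 to 79662170, minus strand) encodes chondromodulin, a glycoprotein of avascular cartilage that inhibits vessel growth. It had 2952, 2323 and 753 normalized reads in BM-MSC and 503, 47.1 and 164 in P-SSC, the highest P-SSC mean (238) of the 6 genes absent from the graft. With 0 in every graft library, *Cnmd* was at least 665-fold below BM-MSC and at least 78.7-fold below P-SSC there, and *Matn3* at least 603-fold and at least 15.2-fold.

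*Sox9* (ENSMUSG00000000567, chromosome 11, 112782224 to 112787760, plus strand) did not go with the genes it is known to drive. It had 65.8, 23.2 and 28.6 normalized reads in BM-MSC, 27.0, 25.5 and 317 in P-SSC, and 114, 656, 933 and 318 in graft BM-MSC. Every graft library lay above every BM-MSC library, by 12.9-fold for the means (log2 difference 3.41 ± 1.12), so the description of these genes as lost in the graft does not hold for *Sox9*. P-SSC 4, the steady-state library with GC-rich genes high, was also the one with *Sox9* in the graft's range, and with the GC set as a covariate the direction turned to -0.13. The exons of *Sox9* have 49.3% GC, and the part of the GC set in its values was not tested.

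**Figure D2:**
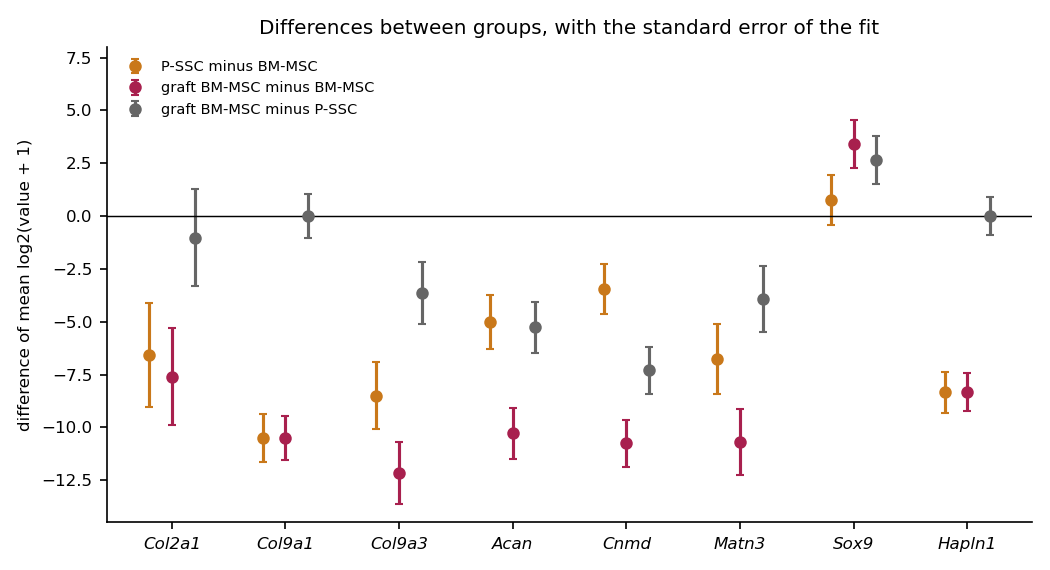
Difference of the mean log2(value + 1) between groups for each of the 8 genes, with the standard error of the fit, for P-SSC minus BM-MSC, graft BM-MSC minus BM-MSC and graft BM-MSC minus P-SSC. The 7 matrix genes lie below 0 in both comparisons with BM-MSC and *Sox9* lies above, at 3.41 for the graft.

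Taking the 8 genes together, 7 had all graft libraries below all BM-MSC libraries and 1 (*Sox9*) had them above, where 14.7% and 10.3% of the 13644 genes tested did so. The count of 7 lower follows from how the genes were chosen. Their median log2 difference was -10.39, or -8.97 by ratios of means with genes at 0 in the graft set to the floor, and the median over all tested genes was -0.53. Against P-SSC, whose libraries were not part of that comparison but share the graft libraries with it, 2 of the 8 (*Acan* and *Cnmd*) had all graft libraries lower, beside 18.5% of all tested genes, and none had them all higher (8.06%), and the median was -2.34 (all genes -0.47), or -3.65 by ratios of means with genes at 0 in the graft set to the floor and the genes at 0 in both groups left out. *Col9a1* and *Hapln1* were at 0 in both groups, so no fold can be given for them.

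High expression in BM-MSC with complete absence from the graft was uncommon. Of the 7241 genes with at least 100 normalized reads in every BM-MSC library, 44 (0.608%) were at 0 in all 4 graft libraries. Of the 8 genes, 7 reach 100 in every BM-MSC library, all but *Sox9*, and 6 are among the 44. They were chosen for low values in the graft, so their place among the 44 follows from the choice and is no enrichment. The 3 graft libraries with *Col2a1* allow the other genes to be read relative to it within a library. In BM-MSC there were 12.0, 9.30 and 7.80 reads of *Col9a3* for every 100 reads of *Col2a1*. In graft BM-MSC 1, 3 and 4 there were none, where 3 reads would have given 0.214, 0.225 and 0.0726 per 100. *Acan* stood at 2.29, 2.22 and 3.39 per 100 in BM-MSC and was likewise under those floors in the graft. *Col2a1* in the graft was therefore not accompanied by the BM-MSC share of *Col9a3*, *Acan* or *Matn3*. The third type IX chain, *Col9a2*, stood at 3.21 per 100 in graft BM-MSC 1 and at 0 in the other two, against 3.54 to 8.18 in BM-MSC. Both type XI chains were present beside *Col2a1* in all 3 graft libraries, at shares that varied: *Col11a2* stood at 34.8, 5.40 and 26.6 per 100 and at 15.7, 20.1 and 33.6 in BM-MSC. *Col11a1* stood at 9.78, 0.825 and 17.3 per 100, against 12.4, 15.0 and 22.4 in BM-MSC, so that graft BM-MSC 3 was below every BM-MSC library for both chains.

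**Figure D3:**
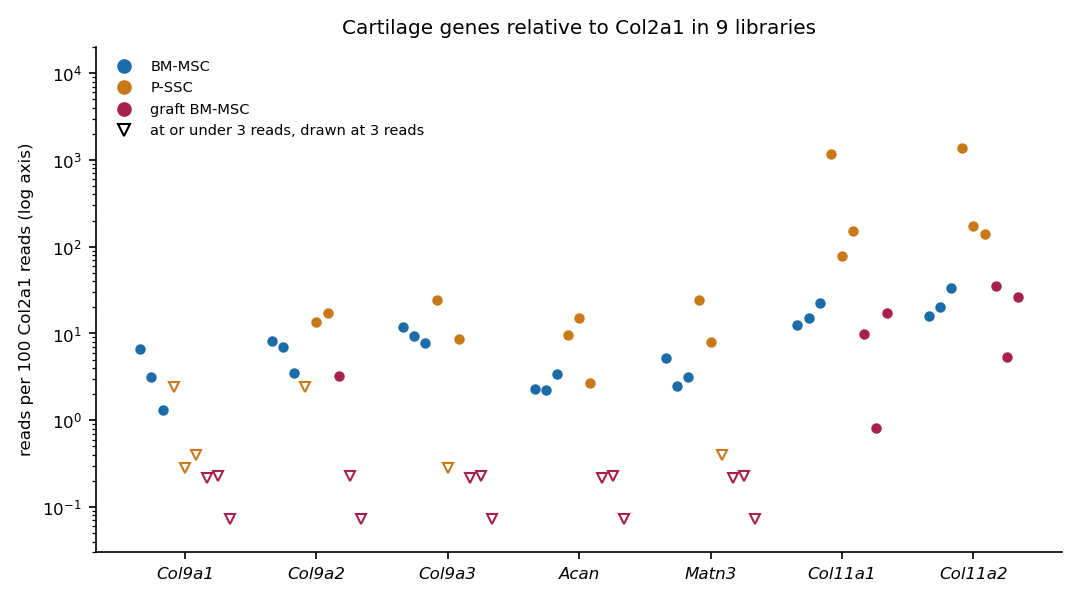
Reads of 7 collagen, aggrecan and matrilin genes per 100 reads of *Col2a1* (log axis), one symbol per library, in the 9 libraries that hold *Col2a1*; an open triangle marks a gene at or under 3 reads, drawn at 3 reads. In the graft *Col9a1*, *Col9a3*, *Acan* and *Matn3* are at or under the floor of 3 reads, at most 0.225 per 100, while *Col11a1* and *Col11a2* lie between 0.825 and 34.8.

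P-SSC against BM-MSC, both at steady state, is the comparison that did not choose the genes, although it shares the BM-MSC libraries with the one that did and so is no independent support. *Col9a1* (log2 difference -10.51 ± 1.12, adjusted p = 0.000222), *Hapln1* (-8.34 ± 0.97, adjusted p = 0.000352), *Col9a3* (-8.50 ± 1.57, adjusted p = 0.00546), *Matn3* (-6.78 ± 1.66, adjusted p = 0.0270) and *Acan* (-5.02 ± 1.29, adjusted p = 0.0346) were lower in P-SSC by limma with Benjamini-Hochberg adjustment over all genes. *Col9a1* and *Hapln1* are at 0 in all 7 libraries outside BM-MSC, so they passed the filter on low values only through BM-MSC, and groups without spread enter their error. The choice of the genes also used the BM-MSC libraries. The p-values of all 8 genes here and the count are therefore a description. The count is 5 of 8, where 4.58% of all tested genes were called lower, 4.57% higher and 9.15% in either direction. *Cnmd* (-3.45 ± 1.20, adjusted p = 0.121) and *Col2a1* (-6.57 ± 2.46, adjusted p = 0.153) did not pass, although no P-SSC library reached any BM-MSC library for 7 of the 8 genes (15.8% of all tested genes were so separated downward and 15.1% upward). *Sox9* did not pass either (0.77 ± 1.20, adjusted p = 0.929), and without P-SSC 4 its difference was -0.41.

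The graft libraries enter the shared estimate of error in that fit. Without graft BM-MSC 2, where it was at 0, *Col2a1* passed with adjusted p = 0.00078, and with the 2 steady-state groups alone with 0.00438, while over all 25 alternatives its adjusted p ran from 0.00078 to 0.402. The calls of *Acan* and *Matn3* were the least stable. Leaving out any 1 BM-MSC library or P-SSC 1 ended both calls, with adjusted p of 0.0929 to 0.158 for *Acan* and 0.0620 to 0.0951 for *Matn3*, and *Acan* was lost without P-SSC 4 as well (0.0992; 0.0080 to 0.241 over all alternatives for *Acan*, 0.00439 to 0.248 for *Matn3*). *Col9a1*, *Col9a3* and *Hapln1* passed in 23 of 25 alternatives, failing only where replicate numbers entered as a block.

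Within BM-MSC the 8 genes did not peak in one library. BM-MSC 3 was lowest for 6 of them, with *Hapln1* and *Sox9* lowest in BM-MSC 2+4, and BM-MSC 1 was highest for 6. Per kilobase of exon, the level in BM-MSC fell in the order *Col2a1* (mean 5470 reads per kilobase), *Col9a3* (1306), *Cnmd* (1090), *Matn3* (604), *Col9a1* (403), *Acan* (168), *Hapln1* (71.6) and *Sox9* (9.48). *Col2a1* at the top and *Sox9* at the bottom were separated from their neighbours, while the ranges over the 3 libraries of every other pair next to each other in that order overlapped.

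Markers of other cells differed between libraries, but not all in the order of these genes. Summed over 6 osteoblast genes, BM-MSC libraries held 590387 to 1266895 normalized reads, P-SSC 191842 to 422961 and graft BM-MSC 73111 to 88434, with none of the 6 at 0 in any library. In graft against BM-MSC 3 of the 6 were called lower (all genes 5.06%), among them *Col1a1* (log2 difference -5.48 ± 0.47, adjusted p = 0.000799, limma) of bone collagen. In P-SSC against BM-MSC 4 of 6 were called lower (all genes 4.58%). The sum is mostly *Col1a1*, and the members did not move together between graft and P-SSC, where *Ibsp* (log2 difference 4.00), *Sp7* (3.02) and *Alpl* (1.65) were called higher in the graft and *Col1a1* (-4.17) lower, with a median of 2.33 over the 6. Summed over 8 blood cell genes, BM-MSC libraries held 79560 to 216911, P-SSC 639 to 3174 and graft BM-MSC 6983 to 90414, so the graft and BM-MSC overlapped. Against BM-MSC 1 of 8 was called lower in the graft (all genes 5.06%) and 4 of 8 in P-SSC (4.58%). Within BM-MSC the blood sum was highest in BM-MSC 3, where 6 of the 8 cartilage genes were lowest. Sums over 7 marrow stroma genes, mostly *Cxcl12*, were 867168 to 1184256 in BM-MSC, 714858 to 852498 in the graft and 5515 to 11305 in P-SSC. The members differed between graft and BM-MSC. *Ebf3* and *Foxc1* lay higher in the graft without overlap (10.3% of all tested genes did), *Cxcl12* and *Kitl* lower (14.7%). *Foxc1* had 263, 392 and 294 normalized reads in BM-MSC and 5795, 3242, 5476 and 4028 in the graft. Of the 7, 1 was called higher (all genes 2.61%) and 0 lower (5.06%). The part of osteoblasts, blood cells or chondrocytes in the results was not tested, and in these bulk samples fewer expressing cells and less RNA per cell cannot be told apart.

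Beyond the 8 genes, 36 other cartilage genes were listed, of which 34 were in the table and all 34 were tested. In graft against BM-MSC 11 of 34 were lower and 0 higher by limma (32.4%, where 7.67% of all genes were called, 5.06% lower and 2.61% higher; 16 of 34 had an unadjusted p under 0.05, all 16 lower). Over all genes 66.0% of the 1046 calls were lower here, 42.5% of 1023 after quantile normalization and 38.8% of 1011 after GC correction. Of this list 7 were called after quantile normalization and 11 after GC correction, all lower. The part of normalization and GC content in these calls was not tested. Among the 11 of the main fit, *Snorc*, *Scrg1*, *Ucma* and *Gdf5* passed the filter on low values only through BM-MSC. These 4 are at 0 in every graft library. Their p-values and the count are therefore a description. The median log2 difference of the list was -2.64, beside -0.53 for all genes. With the GC set of the library as a covariate 1 of 34 passed, where 40 of all 13644 genes (0.293%) did, and 5 of 34 with edgeR on recovered reads, where 316 (2.32%) did.

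Collagens gave the clearest part of this list, 3 of 5 being lower (all genes 5.06%). *Col9a2*, the third chain of type IX collagen, had 4472, 4651 and 1085 normalized reads in BM-MSC and 25.4, 0, 0 and 0 in the graft (log2 difference -10.28 ± 1.83, adjusted p = 0.00919). *Col11a1*, a chain of the fibril core, fell from 6761, 9948 and 6869 to 77.4, 102, 11.1 and 615 (-6.46 ± 1.00, adjusted p = 0.00491). *Col11a2* fell likewise, from 8590, 13351 and 10301 to 276, 32.9, 72.5 and 950 (-6.05 ± 0.93, adjusted p = 0.00491). Both type XI chains are also made outside cartilage. The groups did not overlap for any of these 3 genes, where 14.7% of all tested genes were so separated downward. *Col10a1*, of hypertrophic cartilage, was present in BM-MSC 2+4 (635) and P-SSC 4 (700) and at 0 in the other 8 libraries. *Col27a1* did not pass, at 118 to 349 normalized reads in BM-MSC and 0 to 381 in the graft.

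Of 13 matrix proteins 6 were lower in the graft (all genes 5.06%): *Chad*, for the collagen-binding chondroadherin, *Epyc*, for the proteoglycan epiphycan, *Ucma*, *Snorc*, *Scrg1* and *Clec3a*. All but *Chad* were at 0 in the 4 graft libraries. *Snorc*, for a membrane proteoglycan of chondrocytes, had 339, 499 and 114 normalized reads in BM-MSC (at least 105-fold lower in the graft), and *Scrg1* had 415, 459 and 125 (at least 110-fold lower). *Comp*, for an oligomeric protein shared by cartilage and tendon, stood apart, at 5397 to 10452 normalized reads in the graft, 1724 to 7286 in BM-MSC and 6253 to 16737 in P-SSC, and was called in no comparison.

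Of 9 regulators 1 was called lower in graft against BM-MSC, where 5.06% of all genes were (3 of 9 had an unadjusted p under 0.05). It was the joint growth factor gene *Gdf5* (adjusted p = 0.0264, limma), at 20.9, 54.8 and 23.7 normalized reads in BM-MSC and 0 in the graft. *Sox5*, a partner of SOX9, had 49.1 to 97.6 normalized reads in BM-MSC, 218 to 381 in P-SSC and 0, 0, 79.6 and 75.1 in the graft, and was called in no comparison. *Pth1r*, the receptor for parathyroid hormone and its related protein, was at 3452 to 7633 in the graft and 1512 to 2315 in BM-MSC, without overlap but not called. Its ligand gene *Pthlh* was at 0 in all graft libraries and 1197 to 1912 in P-SSC. *Fgfr3*, *Trps1* and *Wwp2* overlapped or did not pass in graft against BM-MSC. Among 7 genes of glycosaminoglycan synthesis 1 was lower (all genes 5.06%), *Csgalnact1*, which extends chondroitin sulfate chains. It had 186, 47.5 and 73.0 normalized reads in BM-MSC and 5.08, 0, 0 and 0 in the graft (adjusted p = 0.0189, limma).

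**Figure D4:**
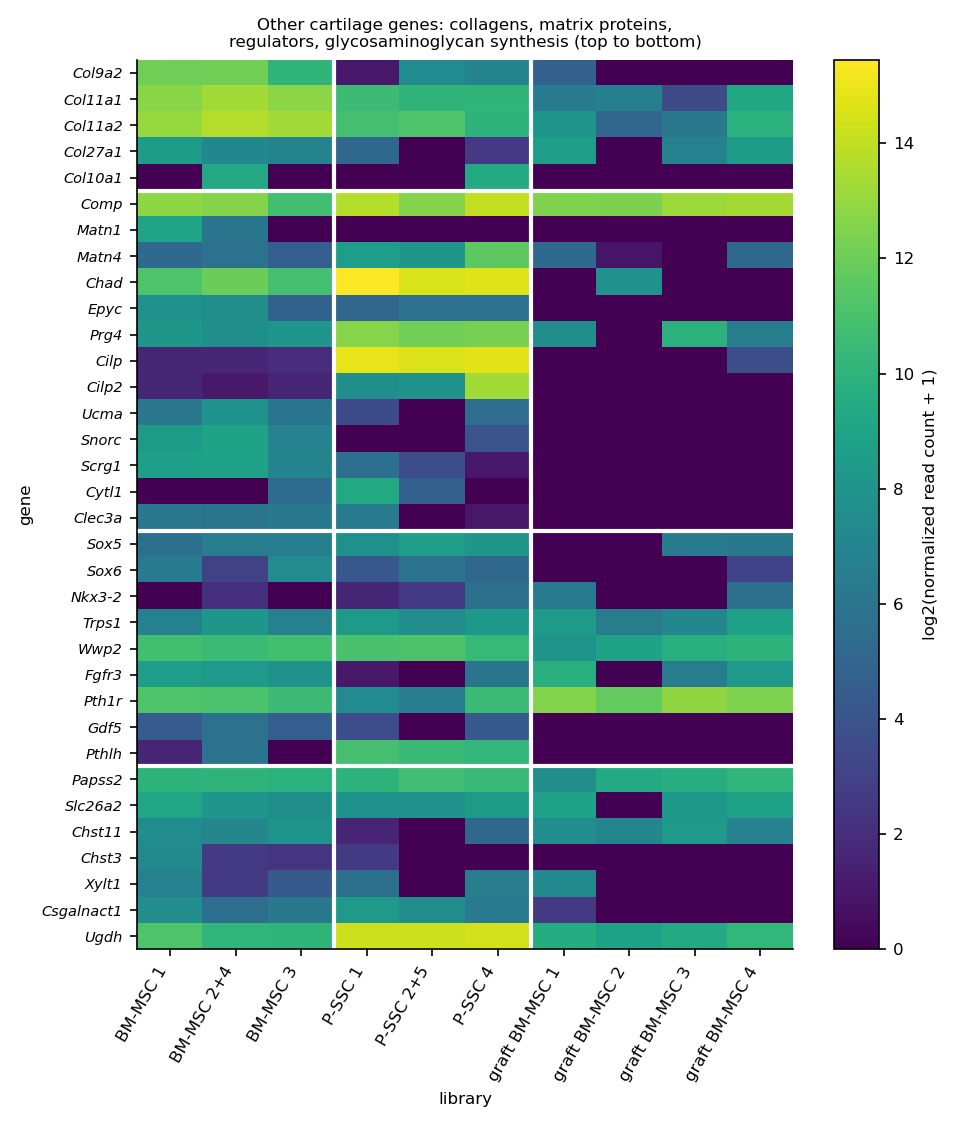
Log2(normalized read count + 1) of the 34 other cartilage genes (rows, grouped from top to bottom as collagens, matrix proteins, regulators and glycosaminoglycan synthesis) in the 10 libraries (columns). Type IX and XI collagen genes are brightest in the 3 BM-MSC libraries, *Chad*, *Cilp* and *Ugdh* in the 3 P-SSC libraries, and 12 genes are at 0 in all 4 graft libraries.

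In P-SSC the other cartilage genes were called in both directions. Against BM-MSC 4 of the 34 were higher and 2 lower (17.6%, all genes 9.15%), with a list median of -0.38 beside 0.00 for all genes. The split of this list was 5 higher and 8 lower after quantile normalization (all genes 11.2%) and 3 higher and 0 lower with edgeR (4.54%). Those higher were *Cilp* and its relative *Cilp2*, for proteins of the cartilage intermediate layer, *Pthlh* and *Ugdh*, which supplies the sugar for hyaluronan and chondroitin sulfate. *Cilp*, *Cilp2* and *Pthlh* passed the filter on low values only through P-SSC, with means of 2.39, 1.71 and 20.4 in BM-MSC and 3.02, 0 and 0 in the graft. Their p-values and the count are therefore a description. *Cilp* had 30147, 24905 and 29326 normalized reads in P-SSC and 2.09, 2.11 and 2.96 in BM-MSC (log2 difference 13.03 ± 1.27, adjusted p = 0.000135). *Ugdh* had 19428, 20132 and 21105 in P-SSC and 2315, 1134 and 1111 in BM-MSC (3.82 ± 0.38, adjusted p = 0.000148). Those lower were *Snorc*, which passed the filter only through BM-MSC, and the sulfotransferase gene *Chst11*. *Chad* reached 44663, 23976 and 25980 in P-SSC and 2350, 4116 and 1810 in BM-MSC, without overlap but not called. Of 3 tendon markers, *Tnmd* had 4649, 6695 and 3178 normalized reads in P-SSC and 17.8, 22.1 and 0 in BM-MSC, while *Scx* and *Mkx* overlapped. The part of tendon cells in these values was not tested.

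In graft against P-SSC 14 of 34 were called, 12 lower and 2 higher (41.2%; all genes 18.1%, 12.0% lower and 6.08% higher). Over all genes 66.3% of these calls were lower, 49.9% after quantile normalization and 46.7% after GC correction. The lower ones included *Cilp* at 0, 0, 0 and 12.1 in the graft (log2 difference -13.85 ± 1.19, adjusted p = 4.55e-05), *Chad* at 0, 244, 0 and 0 (-12.90 ± 1.68, adjusted p = 0.000452) and *Ugdh* at 757, 461, 688 and 1198 (-4.78 ± 0.36, adjusted p = 2.05e-05). *Col11a1*, *Col11a2*, *Matn4*, *Epyc*, *Prg4* (lubricin of the joint surface), *Cilp2*, *Wwp2*, *Pthlh* and *Csgalnact1* were called lower too. These calls differed in how often they held: that of *Prg4* was lost in 14 of 24 alternatives, *Col11a2* in 12 of 24, *Col11a1* in 9 of 23, *Wwp2* in 9 of 24 and *Matn4* in 7 of 24, and those of *Cilp*, *Chad* and *Ugdh* in 0. *Pth1r* (4.25 ± 0.77, adjusted p = 0.00318) and *Chst11* (5.18 ± 1.25, adjusted p = 0.0160) were higher, the latter call being lost in 8 of 24 alternatives. *Cilp*, *Cilp2* and *Pthlh* passed the filter only through P-SSC here too, so their p-values and the count of 12 lower are a description. This comparison and the previous ones share libraries, so the same gene in both is not a second observation.

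Over the 10 libraries, the genes outside these lists whose levels were most like the mean of the 8 cartilage genes were *A2m* (Pearson r = 0.978), *Clptm1* (0.968), *Pdia6* (0.961), *Plk1* (0.947) and *Zbtb8a* (0.937). The points are the same libraries with the same group structure, so these values are a description. *A2m*, for a protease inhibitor, had 5372, 4564 and 5459 normalized reads in BM-MSC, 1.04, 1.27 and 25.2 in P-SSC and 0 in the graft. *Plk1*, for a mitotic kinase, had 306, 474 and 1045 normalized reads in BM-MSC, 1.04, 0 and 0 in P-SSC and 0 in the graft. Unlike these, *Pdia6*, which folds secreted proteins, stayed high everywhere, at 20470 to 21283 in BM-MSC, 12719 to 15729 in P-SSC and 10201 to 12333 in the graft.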

How the data were processed

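The deposited table holds 1 normalized read count per gene and library, a signal made by the authors by dividing gene counts by a size factor per library, as read from the values. Division by the value of 1 read gave whole reads for 100% of values (tolerance 0.01). The submitters' processing notes name FastQC 0.11.5, cutadapt 1.15, STAR 2.5, featureCounts (Subread 1.4.6), DESeq2 1.26.0 and GRCm39, while the published methods name GRCm38. The counting setting for strand is not given in the sources used here. Coordinates are those of GENCODE on GRCm38, matched by Ensembl ID for 15052 of 15078 genes. Promoter windows are RefSeq's.

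Groups follow the labels. Log2(value + 1) was fitted with limma 3.58.1 (empirical Bayes with trend, 3 groups, no covariate) for the 13644 genes with a mean of at least 10, and p-values were adjusted by Benjamini-Hochberg with a threshold of 0.05. edgeR 4.0.16 and DESeq2 1.42.0 on the recovered reads were alternatives. Scripts were tested on simulated data. Folds against a group at 0 use a floor of 3 reads per library.

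The genes and lists were chosen with earlier results of these data known. Named in the text were the 8 genes, other cartilage genes called in at least 1 comparison or with a mean of at least 100, markers of other cells, and the 5 genes most alike in pattern. Replicate numbers shared between groups were not used to pair the libraries in the main fit.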

Additional observations from a re-analysis of the deposited data

Results flagged for a closer look

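Among 21 named genes with reads in the graft, 5 had 1 graft library far from the other 3 of the group of 4, where chance marks about 1 in 20 groups of values with a continuous spread. For *Col9a2*, *Chad*, *Cilp* and *Csgalnact1* the other 3 libraries are at 0, so that any detection in the fourth is marked and this rate does not apply. *Col9a2* had 25.4 normalized reads in graft BM-MSC 1 and 0 in the others. *Col11a1* had 615 in graft BM-MSC 4, against 11.1 to 102 in the others. *Chad* had 244 in graft BM-MSC 2, the library without *Col2a1*, and 0 in the others. *Cilp* had 12.1 in graft BM-MSC 4 and *Csgalnact1* had 5.08 in graft BM-MSC 1, each with 0 in the others.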

How the results depend on the processing

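The median log2 difference of the 8 genes in graft against BM-MSC (-10.39) was -13.71 with a pseudocount of 0.1, -8.08 with 5, -9.12 after quantile normalization, -13.71 with edgeR, -13.32 with DESeq2, -9.70 after GC correction, -9.70 after GC correction with a replicate block and -8.64 with the GC set of the library as a covariate. In graft against P-SSC (-2.34) it was, in the same order, -3.85, -1.33, -0.89, -4.02, -3.86, -2.23, -1.06 and -0.77, it was -1.11 with the replicate block alone, and -2.98 to -1.41 when leaving out 1 library.

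The count of the 8 genes called lower in P-SSC against BM-MSC (5) was 3 with a pseudocount of 0.1, with edgeR or with an adjusted p under 0.01, and 3 to 6 when leaving out 1 library, 3 being reached without any 1 of the BM-MSC libraries or P-SSC 1. Over all genes 9.15% were called in the main fit in either direction, and in that order 8.45%, 4.54% and 5.82%. Without 1 of the libraries just named it was 6.56 to 7.26%. Of other cartilage genes, 11 of 34 were called in graft against BM-MSC. This became 5 of 22 with a mean of at least 100, 7 after quantile normalization and 5 with edgeR. It was 7 with an adjusted p under 0.01 and 1 with the GC set as a covariate. Leaving out 1 library gave 7 to 13 (7 without BM-MSC 2+4). Over all genes 1046 of 13644 were called in the main fit. In that order it was 714 of 9546, then 1023, 316, 305 and 40 of 13644, and 444 of 13657 without BM-MSC 2+4. The 14 called in graft against P-SSC became 8 with an adjusted p under 0.01, 9 with 2 groups only, 5 with the GC set as a covariate and 9 to 16 when leaving out 1 library (9 without P-SSC 1). Over all genes 18.1% were called in the main fit. In that order it was 9.76%, 12.4% and 7.92%, and 11.1% without P-SSC 1. The 6 called in P-SSC against BM-MSC became 13 after quantile normalization, 3 with edgeR, 10 with 2 groups only, 12 within the libraries with GC-rich genes low and 5 to 10 when leaving out 1 library (10 without graft BM-MSC 2). Over all genes 9.15% were called in the main fit. In that order it was 11.2%, 4.54%, 13.6% and 15.0%, and 11.1% without graft BM-MSC 2. The cause of these shifts was not tested.

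Libraries of the same number did not deviate together (correlations of deviations from -0.0191 to 0.0295 over 13644 genes). BM-MSC 2+4, P-SSC 2+5 and graft BM-MSC 2 were not in that check. With so few libraries per group it cannot settle whether the numbers mark paired mice. With the number as a replicate block, 1 of the 8 genes was called in P-SSC against BM-MSC (*Col2a1*), and 1, 3 and 0 other cartilage genes in graft against BM-MSC, graft against P-SSC and P-SSC against BM-MSC (for the last, 10 of 34 had an unadjusted p under 0.05 by limma; edgeR and DESeq2 without the block called 3 and 8). With GC correction and the block these were 1, and 1, 5 and 0 (12 of 34 under 0.05 unadjusted). Over all genes that fit called 3, 323 and 66 in graft against BM-MSC, graft against P-SSC and P-SSC against BM-MSC.

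Over all genes, 1046, 2464 and 1248 were called in graft against BM-MSC, graft against P-SSC and P-SSC against BM-MSC, and 316, 1531 and 619 with edgeR, 1947, 2908 and 1515 with DESeq2, and 3, 269 and 54 with the replicate block. Values below 3 reads in a library could not be told from 0.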
